A study of Mus musculus with 24 samples.

Results

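The set described here holds 60 genes of mitosis and the G2/M transition, all 60 of which were tested among 16241 genes, out of 27597 gene names on the array. A gene was a member when a probe on the array carried its name or an older synonym, such as Cdc2a for Cdk1, Sgol1 for Sgo1 and 2010317E24Rik for Sapcd2. The 60 genes had 105 probes, and each of the 32 genes with more than 1 was read from its brightest probe over all samples. N1E-115 cells, derived from a neuroblastoma of the mouse, were studied in 3 lines and 2 media with 4 samples each. The TO line was transfected with an N-terminal fusion of transcobalamin, the carrier of vitamin B12 (cobalamin), to oleosin, whose product binds cobalamin with high affinity. The OT line carried the C-terminal fusion, for which no cobalamin binding was detected, and the WT cells were not transfected. Differentiation medium (d) held 2.5% fetal calf serum and 1.25% DMSO, and proliferation medium (p) held 10% serum with no DMSO named, so serum and DMSO changed together. Cells for d medium were also trypsinized and replated 1 day earlier, per the labels' protocols. The groups are written TO-d, OT-d, WT-d, TO-p, OT-p and WT-p. The design text calls the samples biological replicates, but the sources used here do not say whether a line was 1 clone or what separated the samples, so the tests rest on the spread among the 4 samples of a group, which may be technical. In every group 1 pair of samples has the same number in its labels, 1 of the pair with the suffix b, and the sources do not say whether such a pair came from 1 culture, so a group may hold 3 separate cultures rather than 4.

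Entry into mitosis is driven by Cdk1 with cyclins A and B, and the kinases Plk1, Aurora A and Aurora B then shape the spindle and correct chromosome attachment. The spindle checkpoint holds back Cdc20 and the anaphase-promoting complex until every kinetochore is attached, after which separase cuts cohesin and a contractile ring divides the cell. Most of these genes are transcribed in late S, G2 and M phase and are held down in resting cells by the DREAM complex, whose MuvB core binds the element TTTGAA (the cell cycle genes homology region) in many of these promoters, often downstream of CCAAT boxes bound by NF-Y. In proliferating neuroblastoma cells these genes are active, and they are known to fall when such cells leave the cell cycle.

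Promoters are shown for 4 members of different roles that fell in every line and for Racgap1 and Cit, which departed from the rest of the set. The RefSeq promoter table (GRCm38.p6) held 50 of the 60 members. Each window below has the 200 bases before the annotated start, 5′ to 3′ on the strand of the gene, and capitals mark CCAAT or TTTGAA on either strand (ATTGG and TTCAAA are the same words on the opposite strand).
Cdk1, chr10:69352913-69353112, minus strand: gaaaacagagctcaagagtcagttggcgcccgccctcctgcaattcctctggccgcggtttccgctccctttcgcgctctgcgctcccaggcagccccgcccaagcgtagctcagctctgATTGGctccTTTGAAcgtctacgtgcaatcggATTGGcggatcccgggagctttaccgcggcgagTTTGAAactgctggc
Cdc20, chr4:118437344-118437543, minus strand: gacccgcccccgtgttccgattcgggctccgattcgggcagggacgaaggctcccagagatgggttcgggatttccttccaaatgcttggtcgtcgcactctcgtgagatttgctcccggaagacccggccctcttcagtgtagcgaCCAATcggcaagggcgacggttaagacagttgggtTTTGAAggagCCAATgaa
Ube2c, chr2:164769729-164769928, plus strand: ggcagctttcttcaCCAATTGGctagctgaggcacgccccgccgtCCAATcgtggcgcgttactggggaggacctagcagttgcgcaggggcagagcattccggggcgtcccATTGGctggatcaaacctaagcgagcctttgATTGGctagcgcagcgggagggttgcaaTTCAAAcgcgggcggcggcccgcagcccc
Mki67, chr7:135716380-135716579, minus strand: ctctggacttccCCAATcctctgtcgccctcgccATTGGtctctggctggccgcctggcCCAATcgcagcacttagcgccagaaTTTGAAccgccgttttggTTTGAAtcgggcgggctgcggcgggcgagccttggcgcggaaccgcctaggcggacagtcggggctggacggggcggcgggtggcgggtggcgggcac
Racgap1, chr15:99651657-99651856, minus strand: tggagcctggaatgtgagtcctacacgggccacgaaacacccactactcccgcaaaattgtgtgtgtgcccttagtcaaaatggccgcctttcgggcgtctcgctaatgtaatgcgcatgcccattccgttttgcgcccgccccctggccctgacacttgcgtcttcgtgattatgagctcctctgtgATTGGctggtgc
Cit, chr5:115845456-115845655, plus strand: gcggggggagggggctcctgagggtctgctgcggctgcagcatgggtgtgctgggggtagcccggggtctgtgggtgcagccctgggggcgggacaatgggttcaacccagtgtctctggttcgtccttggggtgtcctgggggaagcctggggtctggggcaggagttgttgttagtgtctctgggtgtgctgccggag
The windows of Cdk1, Cdc20, Ube2c and Mki67 hold both words, that of Racgap1 holds CCAAT, with a TTTGAA just past the start and outside the printed bases, and that of Cit holds neither.

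Searched over the full window of 250 bases before and 50 after the start, on both strands, CCAAT occurred in 35 of the 50 members with a promoter (70.0%), against 41.1% of the 27025 genes in the table. TTTGAA occurred in 33 of the 50 (66.0%), against 20.2% of all genes, and both words in 29 (58.0%), against 8.97%. For 2 members with more than 1 start in the table, a site in both windows was counted once. Of 43 TTTGAA sites in the members, 31 began within 50 bases of a start, and of 77 CCAAT sites, 73 began before every start of the gene. In 1 place a CCAAT match overlapped a TTTGAA match. These are matches of letters and not measured binding. In WT cells the median log2 difference of WT-d minus WT-p was -3.87 in the 33 members with TTTGAA and -4.54 in the 17 without it. For CCAAT the same medians were -4.16 in 35 members and -3.77 in 15.

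Each of 12 arrays on 3 slides held 2 samples, one in each dye, and the share of spots well above background was 54.3 to 65.9%. Values are normalized log2 intensity, on which a difference of 1 is a doubling, and levels are compared between samples for the same probe only. Of the sympathoadrenal markers that check the label of the cells, 12 of 14 were well above background in all 24 samples, and the neurofilament genes Nefl and Nefm were so in none. Of 10 blood and endothelium markers, 6 were so in at least 1 sample and 3 in all 4 samples of a group, with summed levels of 9.69 to 9.99 over all samples. All 11 fibroblast and smooth muscle markers were so in at least 1 sample and 8 in all 4 samples of a group, with sums of 12.98 to 13.18 in TO-d, 13.01 to 13.18 in OT-d, 12.83 to 13.29 in WT-d and 13.27 to 13.57 in the p groups. The glial list had 12 of 13 in at least 1 sample, Slc1a3 being the exception, and 7 in all 4 samples of a group, with sums of 11.11 to 11.22 in TO-d, 11.56 to 11.64 in OT-d, 11.75 to 11.85 in WT-d and 10.92 to 11.12 in the p groups. The glial sums were thus higher in OT-d and WT-d than in any p sample, while TO-d overlapped the p groups at 11.11 to 11.12. The fibroblast sums were mostly lower in the d groups, and the part of both lists in the results was not tested. Bulk levels cannot tell fewer cycling cells from less RNA per cycling cell. The mean over the 60 genes set 1 sample apart, WT-d replicate 4 at 8.49 against 7.72 to 7.78 in the other WT-d samples. It was also the only WT-d sample that shared its array with a p sample. The array partner and the sample itself therefore cannot be told apart there. Counts for comparisons with WT-d are given with and without WT-d replicate 4. Single-gene values are also given without it where that changed a call or moved a called value by over 1.5 times.

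The d medium lowered nearly the whole set in every line. In TO cells 59 of 60 genes fell and none rose, where 25.9% of all genes tested were called lower and 26.5% higher at an adjusted p under 0.05. In OT cells 59 fell and 1 rose, against 31.1% of all genes lower and 36.5% higher. In WT cells 59 fell and 1 rose, against 30.8% lower and 35.9% higher. The median log2 difference over the 60 genes was -3.76 in TO (13.5-fold lower), -3.47 in OT (11.1-fold lower) and -4.00 in WT (16-fold lower), where the median of all genes lay between 0 and 0.06. In each of the 59 genes all 4 d samples of a line lay below all 4 p samples of that line, which held for 23% of all genes in TO, 28.7% in OT and 24.3% in WT. The exception in each line was Racgap1. Without WT-d replicate 4 the WT median was -4.45, with 59 genes called lower and none higher.

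**Figure D1:**
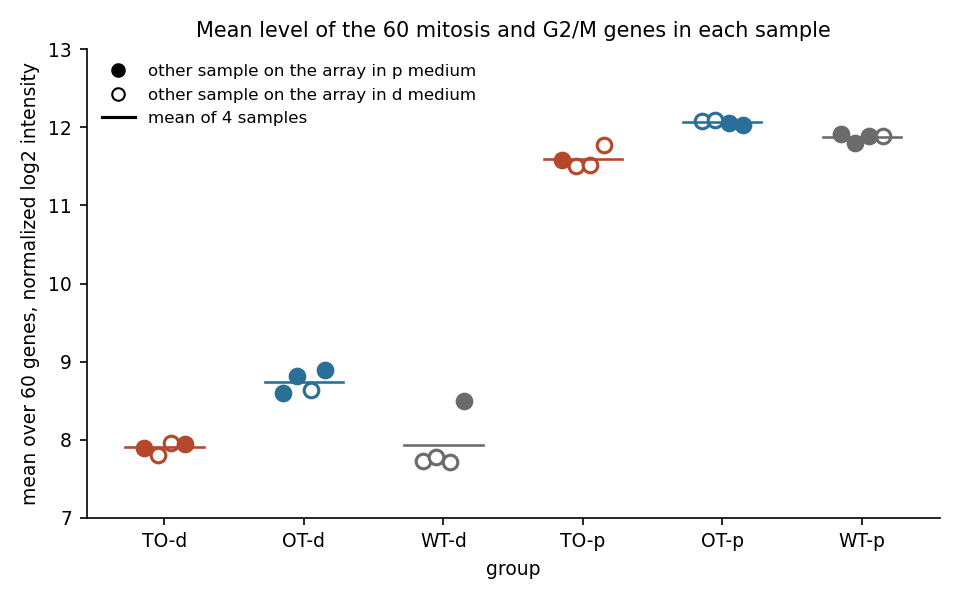
Mean over the 60 genes in each sample (normalized log2 intensity), by group, with a bar at the mean of the 4 samples. Filled points mark samples whose array partner was in p medium and open points those whose partner was in d medium. All d samples lie between 7.72 and 8.89 and all p samples between 11.51 and 12.09, OT-d lies above TO-d, and WT-d replicate 4 stands at 8.49.

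The lines differed as well. Over the 60 genes the sample means were 7.90, 7.81, 7.96 and 7.95 in TO-d, 8.60, 8.82, 8.64 and 8.89 in OT-d, and 7.73, 7.78, 7.72 and 8.49 in WT-d. In p medium they were 11.58, 11.51, 11.52 and 11.77 in TO-p, 12.08, 12.09, 12.05 and 12.03 in OT-p, and 11.92, 11.80, 11.89 and 11.89 in WT-p. The OT samples were thus the highest in both media without overlap with TO or WT. TO was the lowest in p medium, while TO-d and WT-d overlapped.

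In d medium 49 of the 60 genes were lower in TO than in OT cells and 2, Cit and Smc4, were higher, against 20.9% of all genes lower and 19% higher. The median log2 difference was -0.92 (1.89-fold lower), and in 39 genes all 4 TO-d samples lay below all 4 OT-d samples, which held for 22.3% of all genes. Kif20a (-1.77), Sgo1 (-1.62), Sapcd2 (-1.52), Mki67 (-1.52) and Shcbp1 (-1.51) had the largest differences. In p medium 36 genes were lower in TO than in OT and none higher, against 26.2% and 29.9% of all genes, with a median of -0.41. All 4 TO-p samples lay below all 4 OT-p samples in 39 members, against 23.4% of all genes. They lay above them in Ccnb2 alone among the members, against 26.8% of all genes. Here Smc2 (-1.18), Cdk1 (-0.94), Kif4 (-0.94), Melk (-0.84), Plk1 (-0.80) and Cdc25b (-0.80) had the largest differences in p medium.

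Compared with WT, the OT line was raised mainly in d medium. There 44 genes were higher in OT-d than WT-d and 2, Smc4 and Cit, were lower, against 26.6% and 25.2% of all genes, with a median of 0.82 (1.76-fold). Ccna2 (1.72), Shcbp1 (1.61), Cenpf (1.60), Kif20a (1.58) and Pttg1 (1.52) were raised the most. Without WT-d replicate 4 the count was 51 higher and 2 lower and the median 1.00. In p medium 11 were higher in OT-p than WT-p and 2, Ccnb2 and Aurkb, lower, against 20.7% and 24% of all genes, with a median of 0.13. The share of members called higher was thus no larger than that of all genes. Melk (0.52), Cenpe (0.49), Espl1 (0.45), Kif20a (0.43) and Cdc25b (0.42) had the largest values. Espl1 lost its call without OT-p replicate 4 and without WT-p replicate 2, and Kif20a without WT-p replicate 2. The count of members was 7 higher and none lower without WT-p replicate 2, and 4 higher and none lower with the local background as scanned.

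The TO line was below WT in p medium, where 25 genes were lower and none higher, against 15.7% and 19% of all genes, with a median of -0.27. Smc2 (-0.77), Cdk1 (-0.66), Trip13 (-0.63), Kif4 (-0.62) and Cenpa (-0.55) were lowered the most, and Cdk1 lost its call without WT-p replicate 3. The count was 15 without WT-p replicate 3, 16 without TO-p replicate 1 and 10 without the samples that carry the suffix b in their labels. In d medium no common direction was left: 2 genes were higher in TO-d than WT-d and 9 lower, against 22.9% and 23.6% of all genes, with a median of -0.06. Cit (0.38) and Cenpe (0.27) were the higher ones, and the lower ones were Cenpa (-0.67), Birc5 (-0.59), Cdk1 (-0.59), Ncapg (-0.53), Cdc25b (-0.47), Ncapd2 (-0.43), Sgo1 (-0.36), Smc4 (-0.31) and Tpx2 (-0.30). Over 20 alternatives (other processing or fits, and leaving out 1 sample at a time), Cdk1 was called in 6, Sgo1 in 8, Cenpe in 13, Cit and Tpx2 in 15 and Smc4 in 16. Without WT-d replicate 4, Cdk1 (-0.24, adjusted p = 0.395), Sgo1 (-0.26, 0.193), Tpx2 (-0.11, 0.268) and Cenpe (0.26, 0.0696) were no longer called and 11 other members were. The split then turned to 12 higher and 6 lower, and without TO-d replicate 4 it was 1 higher and 6 lower.

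**Figure D2:**
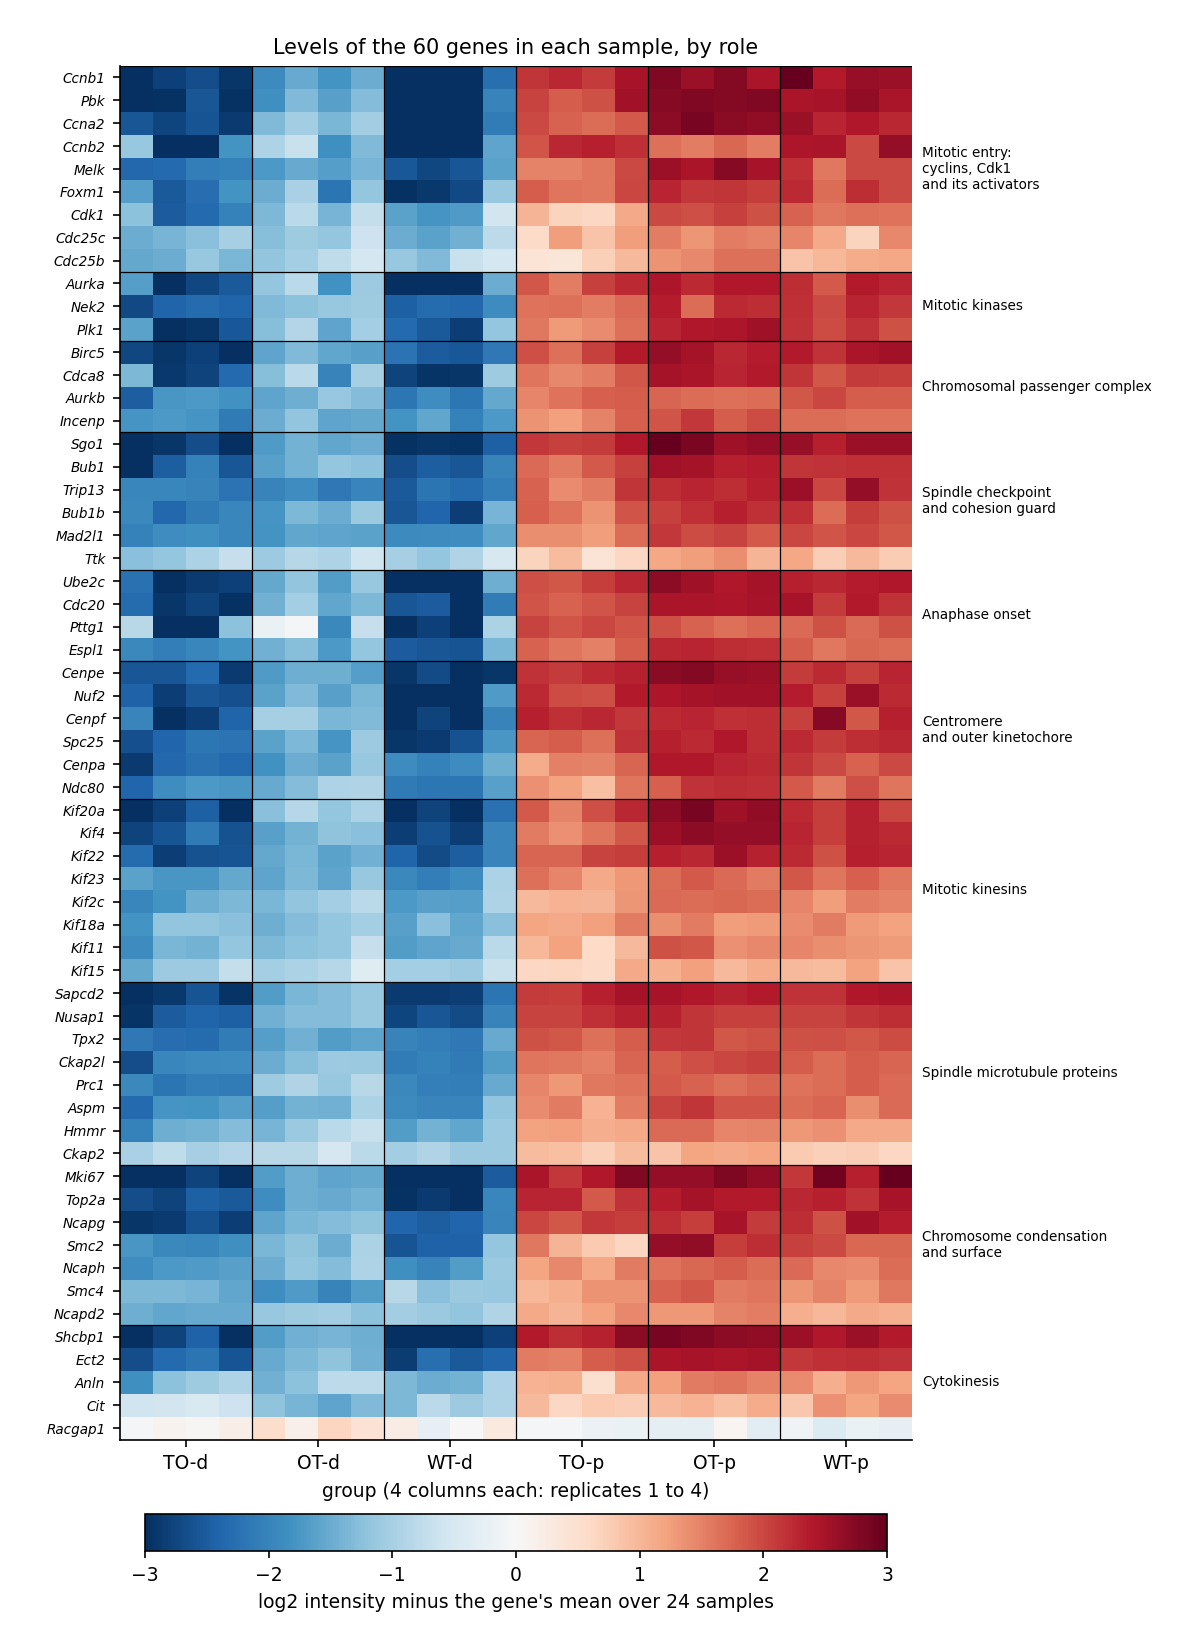
Level of each of the 60 genes (rows, grouped by role) in each of the 24 samples (columns), as normalized log2 intensity minus the mean of the gene over all samples; the colour scale ends at -3 and 3. The d samples on the left are low and the p samples on the right high in every row but Racgap1, OT-d is paler than TO-d in most rows, and the column of WT-d replicate 4 is paler than the other WT-d columns.

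Among the cyclins, Cdk1 and their activators, all 9 genes fell in d medium in every line. Ccnb1, cyclin B1, the partner of Cdk1 at mitotic entry, had 6.58, 7.25, 7.39 and 7.13 in TO-d, 8.14, 8.54, 8.24 and 8.55 in OT-d and 6.94, 6.82, 7.02 and 7.77 in WT-d. It had 12.19, 12.31, 12.14 and 12.52 in TO-p, 12.83, 12.63, 12.79 and 12.48 in OT-p and 13.04, 12.41, 12.66 and 12.63 in WT-p. The lines overlapped in p medium, while in d medium every OT-d sample lay above every TO-d and WT-d sample. Its log2 difference between media was -5.27 (SE 0.147, adjusted p = 3.19e-18) in TO, -4.20 (SE 0.139, adjusted p = 4.64e-17) in OT and -5.56 (SE 0.156, adjusted p = 4.28e-18) in WT. The TO-d minus OT-d difference was -1.36 (SE 0.156, adjusted p = 2.99e-07) and the OT-d minus WT-d difference 1.22 (SE 0.147, adjusted p = 4.04e-07), while TO-p minus OT-p was -0.30 (SE 0.146, adjusted p = 0.087). The TO-p minus OT-p difference was called with the mean of its 3 probes (-0.54, adjusted p = 0.00335) and without the samples with the suffix b (-0.49, 0.0312). It was also called with the authors' series table (-0.32, adjusted p = 0.0487) and with the local background as scanned (-0.94, 0.0295).

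Ccna2, cyclin A2, which acts in S phase and at mitotic entry, had 7.83, 7.65, 7.82 and 7.53 in TO-d, 9.07, 9.35, 9.02 and 9.35 in OT-d and 6.95, 7.24, 6.96 and 8.29 in WT-d. In p medium its levels were 12.07 to 12.37 in TO-p, 13.07 to 13.24 in OT-p and 12.67 to 13.00 in WT-p. OT was thus the highest line in both media without overlap. The difference was -1.50 (SE 0.183, adjusted p = 7.55e-07) for TO-d minus OT-d, -0.76 (SE 0.171, adjusted p = 0.000571) for TO-p minus OT-p and 1.72 (SE 0.172, adjusted p = 2.97e-08) for OT-d minus WT-d, the largest of the 60 in the last of these comparisons.

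Cdk1, the kinase of mitotic entry (its probe at chromosome 10, 68738032 to 68740441 on mm8), had 10.51, 9.26, 9.41 and 9.71 in TO-d, 10.41, 10.95, 10.35 and 11.04 in OT-d and 10.14, 9.99, 10.05 and 11.20 in WT-d. In p medium it had 12.77, 12.42, 12.36 and 12.89 in TO-p, 13.74, 13.68, 13.79 and 13.67 in OT-p and 13.51, 13.34, 13.41 and 13.37 in WT-p. The fall in d medium was nearly the same in the 3 lines, -2.77 in TO, -2.84 in OT and -2.83 in WT (adjusted p of 2.07e-10, 1.85e-11 and 2.41e-10). Its difference between TO and OT was accordingly alike in both media, -0.87 (SE 0.227, adjusted p = 0.00372) in d and -0.94 (SE 0.212, adjusted p = 0.000608) in p. Without the samples with the suffix b the difference in d was -0.71 (adjusted p = 0.0789), not called. TO-d minus WT-d was -0.59 (SE 0.242, adjusted p = 0.0491), and without WT-d replicate 4, the highest sample at 11.20, it was -0.24 (adjusted p = 0.395). That call was lost under 14 of 20 alternatives, which also include leaving out WT-d replicate 1 or TO-d replicate 2, 3 or 4. OT-d minus WT-d was 0.28 (SE 0.213, adjusted p = 0.283), and 0.59 (adjusted p = 0.0164) without that sample.

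Ccnb2, cyclin B2, departed from Ccnb1 in p medium (probe at chromosome 9, 70207028 to 70207087, mm8). It had 12.94, 13.33, 13.38 and 13.26 in TO-p, 12.72, 12.60, 12.77 and 12.60 in OT-p and 13.49, 13.51, 13.03 and 13.70 in WT-p, so OT-p lay below both other lines. It had 9.91, 8.03, 7.96 and 9.27 in TO-d, 10.14, 10.38, 9.21 and 9.74 in OT-d and 7.97, 7.97, 7.98 and 9.48 in WT-d, where the groups overlapped. OT-p minus WT-p was -0.77 (SE 0.271, adjusted p = 0.0241), TO-p minus OT-p was 0.60 (SE 0.3, adjusted p = 0.0954), and OT-d minus WT-d was 1.36 (SE 0.302, adjusted p = 0.000688). The OT-p minus WT-p call was lost under 7 of 20 alternatives, among them leaving out OT-p replicate 1 or 4 or WT-p replicate 1 or 2. TO-d minus WT-d was 0.41 (adjusted p = 0.339), and 0.90 (adjusted p = 0.0258) without WT-d replicate 4.

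Of the others with this role, Foxm1, the transcription factor that activates many G2/M genes, had medium differences of -3.62 in TO, -3.43 in OT and -4.18 in WT. Its OT-d minus WT-d difference was 0.80 (SE 0.258, adjusted p = 0.0122), and 1.24 (adjusted p = 7.67e-05) without WT-d replicate 4, but 0.65 (adjusted p = 0.0926) without WT-d replicate 2. TO-d minus OT-d was -0.53 (SE 0.274, adjusted p = 0.131), and -0.74 (adjusted p = 0.0366) without OT-d replicate 3. Pbk and Melk, mitotic protein kinases, had medium differences of -5.32 to -4.18 and of -4.25 to -3.81 over the 3 lines. Cdc25b, a phosphatase that switches Cdk1 on, fell least in this role, by 2.04 in TO, 2.33 in OT and 1.95 in WT, and was lower in TO than in OT in both media, by 0.51 in d and 0.80 in p. Cdc25c, a related phosphatase, was not well above background in any WT-d sample and fell there at least 5.5-fold. Such a bound sets the mean of the bright group against the mean of the dim samples. Each dim sample enters at its lowest measurable level, or at its own level where that was higher. The bound is given for falls where no d sample of the line was well above background.

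All 3 mitotic kinases outside the passenger complex fell in each line. Aurka, Aurora A, which matures centrosomes and builds the spindle, had 10.51, 9.06, 9.42 and 9.65 in TO-d, 10.99, 11.34, 10.35 and 11.06 in OT-d and 8.93, 9.13, 8.90 and 10.68 in WT-d, against 13.69 to 14.58 over the p samples. Plk1, Polo-like kinase 1, had 10.02, 8.45, 8.71 and 9.08 in TO-d, 10.35, 10.75, 10.04 and 10.61 in OT-d and 9.30, 9.10, 8.79 and 10.46 in WT-d, against 12.91 to 14.16 over the p samples. In both genes WT-d replicate 4 was the highest WT-d sample, and TO-d replicate 1 the highest TO-d sample. Plk1 was lower in TO than in OT in both media, -1.22 (SE 0.282, adjusted p = 0.00131) in d and -0.80 (SE 0.263, adjusted p = 0.0123) in p, while Aurka was lower in d, -1.13 (SE 0.288, adjusted p = 0.00316), and at -0.39 (SE 0.269, adjusted p = 0.237) in p. Without the samples with the suffix b, Plk1 in p (-0.74, adjusted p = 0.105) and Aurka in d (-1.06, adjusted p = 0.0515) were not called. Nek2, a centrosome-splitting kinase, was lower in TO-d than OT-d by 1.35 and higher in OT-d than WT-d by 1.11.

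The chromosomal passenger complex, which corrects wrong attachments and guides cytokinesis, fell in all 4 genes. Birc5, survivin, had 9.91, 9.72, 9.84 and 9.22 in TO-d, 11.06, 11.30, 11.07 and 11.01 in OT-d and 10.42, 10.14, 10.08 and 10.5 in WT-d, so that the 3 lines formed separate levels, TO-d lowest and OT-d highest. The differences were -1.40 (SE 0.136, adjusted p = 2.56e-08) for TO-d minus OT-d, -0.59 (SE 0.145, adjusted p = 0.00206) for TO-d minus WT-d and 0.80 (SE 0.128, adjusted p = 1.69e-05) for OT-d minus WT-d. Aurkb, the kinase of the complex, had 5.97, 6.70, 6.74 and 6.64 in TO-d and 6.87, 6.99, 7.32 and 7.15 in OT-d, against 6.29, 6.59, 6.28 and 6.93 in WT-d. In p medium it had 10.21, 10.14, 10.11 and 10.13 in OT-p and 10.31, 10.46, 10.26 and 10.27 in WT-p, a difference of -0.31 (SE 0.107, adjusted p = 0.0215) that was no longer called under 7 of 20 alternatives, among them leaving out OT-p replicate 3 or 4 or WT-p replicate 1 or 2. Incenp, the scaffold, varied least between lines in d medium, with -0.31 for TO-d minus OT-d and 0.20, not called, for OT-d minus WT-d. Cdca8, borealin, was lower in TO-d than OT-d by 0.95 and higher in OT-d than WT-d by 0.99, or by 1.49 (adjusted p = 3.26e-05) without WT-d replicate 4. Both genes lost their TO-d minus OT-d call without OT-d replicate 2 and without TO-d replicate 4, and Cdca8 its OT-d minus WT-d call without WT-d replicate 2.

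Genes of the spindle checkpoint and of cohesion protection fell in every line, with a wide range between members. Sgo1, shugoshin, which guards centromeric cohesin, had 7.06, 7.58, 7.85 and 7.13 in TO-d, 8.81, 9.09, 8.96 and 9.02 in OT-d and 7.55, 7.60, 7.56 and 8.07 in WT-d, against 12.57 to 13.51 over the p samples. Its TO-d minus OT-d difference of -1.62 (SE 0.134, adjusted p = 2.08e-09) was the second largest of the set, and OT-d lay above both other lines without overlap. Bub1 and Bub1b, checkpoint proteins at the kinetochore, were lower in TO-d than OT-d by 1.25 and 0.63. Mad2l1, the checkpoint protein that binds Cdc20, was lower by 0.28 in d and by 0.52 in p medium. Ttk, the kinase at the top of the checkpoint, fell at least 3.05-fold in TO and at least 3.42-fold in WT, where no d sample was well above background.

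Trip13, the ATPase that takes the checkpoint complex apart, had 8.83, 8.83, 8.78 and 8.57 in TO-d, 8.78, 8.93, 8.66 and 8.82 in OT-d and 8.28, 8.60, 8.48 and 8.71 in WT-d. In p medium it had 12.56, 12.20, 12.35 and 12.94 in TO-p, 13.00, 13.08, 13.00 and 13.12 in OT-p and 13.36, 12.79, 13.42 and 12.95 in WT-p. Its lines overlapped in d medium, 0.05 (SE 0.141, adjusted p = 0.835) for TO-d minus OT-d, and TO was lower in p medium, -0.55 (SE 0.132, adjusted p = 0.00101). Its fall was accordingly smaller in TO than in OT by 0.60 on the log2 scale (SE 0.192, adjusted p = 0.0156), a call lost without TO-p replicate 2.

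At anaphase onset, all 4 genes fell in each line, all 4 were lower in TO-d than OT-d and all 4 were higher in OT-d than WT-d. Cdc20, the activator of the anaphase-promoting complex, had 9.83, 9.22, 9.36 and 9.17 in TO-d, 10.70, 11.13, 10.58 and 10.79 in OT-d and 9.57, 9.65, 9.14 and 10.05 in WT-d. It had 14.03, 13.90, 14.03 and 14.17 in TO-p, 14.60, 14.60, 14.56 and 14.61 in OT-p and 14.61, 14.24, 14.53 and 14.32 in WT-p. TO lay below OT in both media without overlap, -1.33 (SE 0.157, adjusted p = 4.93e-07) in d and -0.52 (SE 0.147, adjusted p = 0.00434) in p, and OT-d lay above WT-d, 1.08 (SE 0.148, adjusted p = 2.4e-06). Ube2c, the ubiquitin-conjugating enzyme of that complex, was lower in TO-d than OT-d by 1.34, and Espl1, separase, by 0.54. The core subunits of the complex, 15 genes of another list, had smaller medians: 7 fell and 2 rose in TO, 4 fell and 4 rose in OT, and 6 fell and 1 rose in WT, with medians of -0.14, -0.07 and -0.18. Among all genes 25.9% fell and 26.5% rose in TO, 31.1% and 36.5% in OT, and 30.8% and 35.9% in WT.

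Pttg1, securin, the inhibitor of separase, had the most uneven d samples. It had 11.87, 9.19, 9.28 and 11.48 in TO-d, 12.52, 12.67, 10.78 and 12.02 in OT-d and 9.53, 9.90, 9.39 and 11.77 in WT-d, against 14.37 to 14.73 over all p samples. The low samples of each line, TO-d replicates 2 and 3, OT-d replicate 3 and WT-d replicates 1 to 3, were those that shared their array with another d sample, and the high ones shared it with a p sample. In 13 of 60 members (21.7%) all d samples beside a p sample lay above all d samples beside a d sample in each of the 3 lines, against 2.91% of all genes. They were Cdk1, Ccnb2, Foxm1, Plk1, Aurka, Cdca8, Ube2c, Espl1, Pttg1, Cenpf, Kif22, Tpx2 and Smc2. In WT the only d sample beside a p sample was WT-d replicate 4, where 57 of 60 members were above the mean of the other WT-d samples (median 0.64). Beside p samples 23 of 60 were higher in TO-d (median -0.08) and 38 in OT-d (median 0.10). With the medium of the array partner as a covariate the counts of members called held within 1.5 times in all 12 comparisons, and Cdk1 was at -0.81 for TO-d minus OT-d (adjusted p = 0.000761). Among d samples beside d samples alone, 57 of 60 genes were lower in TO-d (2 samples) than in OT-d (1 sample), with a median of -0.84. There 58 were higher in OT-d (1 sample) than in WT-d (3 samples), with a median of 0.95. In the same samples 45 were higher and 15 lower in TO-d (2 samples) than in WT-d (3 samples), with a median of 0.18, where the fit on all samples gave -0.06.

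Centromere and outer kinetochore genes were lower in TO-d than OT-d in all 6 cases and higher in OT-d than WT-d in 5. Cenpf, a large kinetochore protein of G2 and M phase, had 8.15, 7.03, 7.29 and 7.72 in TO-d, 9.13, 9.12, 8.76 and 8.81 in OT-d and 6.62, 7.34, 6.62 and 8.12 in WT-d, against 11.99 to 12.85 over the p samples. OT-d lay above both other lines, with -1.31 (SE 0.246, adjusted p = 0.000179) for TO-d minus OT-d and 1.60 (SE 0.231, adjusted p = 5.16e-06) for OT-d minus WT-d, while TO-p minus OT-p was 0.10 (SE 0.23, adjusted p = 0.745). Cenpe, the kinetochore motor, was higher in TO-d than WT-d, 0.27 (SE 0.1, adjusted p = 0.0308), 1 of only 2 members called in that direction, and lost its call under 7 of 20 alternatives, among them leaving out TO-d replicate 1 or 3 or WT-d replicate 3 or 4 (0.26, adjusted p = 0.0696, without the last). Cenpa, the histone H3 variant of the centromere, was lower in TO-d than in both OT-d (by 0.96) and WT-d (by 0.67), and OT-d minus WT-d was 0.29 (SE 0.123, adjusted p = 0.0556). That last difference was called under 8 of 20 alternatives, among them leaving out WT-d replicate 4 (0.37, adjusted p = 0.0306) or OT-d replicate 1. Nuf2, Spc25 and Ndc80 form the microtubule-binding Ndc80 complex and were lower in TO-d than OT-d by 1.1, 0.94 and 0.78. Ndc80 was not well above background in any WT-d sample and fell there at least 13-fold.

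The mitotic kinesins divided by the size of their response. Kif20a, the motor of the cleavage furrow and central spindle, had 7.99, 8.19, 8.55 and 7.69 in TO-d, 9.75, 10.15, 9.84 and 10.05 in OT-d and 8.00, 8.23, 7.93 and 8.77 in WT-d, and its TO-d minus OT-d difference of -1.77 (SE 0.159, adjusted p = 7.42e-09), 3.42-fold, was the largest of the 60. It had 12.85, 12.49, 12.94 and 13.26 in TO-p, 13.68, 13.84, 13.55 and 13.67 in OT-p and 13.25, 13.08, 13.30 and 13.01 in WT-p, so OT was the highest line without overlap in both media. Kif4 and Kif22, the chromokinesins, were lower in TO-d than OT-d by 1.13 and 1.06 and in TO-p than in OT-p by 0.94 and 0.46. Kif18a, the motor that dampens chromosome oscillation, fell by 2.64 in TO, 2.62 in OT and 2.85 in WT. It showed the smallest line differences, -0.03 in d and -0.01 in p for TO minus OT, with 95% intervals of -0.29 to 0.22 and -0.25 to 0.23. In d medium it was near background, with means of 6.51 in TO-d, 6.62 in OT-d and 6.43 in WT-d. It was well above background in 3, 3 and 1 of the 4 samples there, which limits the size of a line difference in d. Kif23, a subunit of centralspindlin, likewise was not called between lines in either medium, but without WT-d replicate 4 it was higher than WT-d in TO-d by 0.33 (adjusted p = 0.0257) and in OT-d by 0.58 (adjusted p = 8.28e-05). Kif11, Kif15 and Kif2c were at background in the WT-d samples and fell there at least 6.19-fold, 3.62-fold and 7.23-fold. Kif11 and Kif15 were so in TO-d too and fell at least 4.98-fold and 3.24-fold, and Kif15 in OT-d, with a fall of at least 3.73-fold.

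All 8 spindle microtubule proteins fell in each line, 7 were lower in TO-d than OT-d and all 8 were higher in OT-d than WT-d. Sapcd2 had 7.43, 7.63, 7.94 and 7.59 in TO-d, 8.85, 9.16, 9.23 and 9.40 in OT-d and 7.66, 7.66, 7.70 and 8.34 in WT-d, against 12.61 to 13.02 over the p samples. Its difference was -1.52 (SE 0.105, adjusted p = 1.07e-10) for TO-d minus OT-d but -0.07 (SE 0.098, adjusted p = 0.56) for TO-p minus OT-p. Nusap1, which bundles spindle microtubules, showed the same, with -1.29 in d and 0.04 (not called) in p. Prc1, the crosslinker of the central spindle, was lower in TO-d than OT-d by 1.03, and Tpx2, the activator of Aurora A, by 0.63. Ckap2 fell least, by 1.78 in TO, 1.84 in OT and 1.73 in WT. Aspm, Hmmr and Ckap2l were at background in WT-d and fell there at least 10.2-fold, 5.95-fold and 13.3-fold, and Hmmr was so in TO-d as well, with a fall of at least 6.24-fold.

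Chromosome condensation genes held the largest fall in TO cells and 1 of the exceptions between lines. Mki67, the surfactant protein of mitotic chromosomes known as the proliferation marker Ki-67, had 7.68, 7.42, 7.91 and 7.45 in TO-d, 9.01, 9.22, 9.10 and 9.14 in OT-d and 7.28, 7.50, 7.36 and 8.18 in WT-d. It had 13.14, 12.81, 13.09 and 13.45 in TO-p, 13.32, 13.32, 13.48 and 13.33 in OT-p and 12.80, 13.58, 13.02 and 13.71 in WT-p. The lines overlapped in p medium, and OT-d stood above TO-d and WT-d without overlap. The fall was -5.58 (SE 0.169, adjusted p = 1.25e-17) in TO, -4.20 (SE 0.16, adjusted p = 4.1e-16) in OT and -5.59 (SE 0.179, adjusted p = 4e-17) in WT. TO-d minus OT-d was -1.52 (SE 0.179, adjusted p = 4.55e-07) and TO-p minus OT-p -0.15 (SE 0.168, adjusted p = 0.485). Top2a, topoisomerase II alpha, which untangles sister DNA, had the same form: TO-d minus OT-d was -1.12 (SE 0.159, adjusted p = 5.99e-06), OT-d minus WT-d 1.11 (SE 0.15, adjusted p = 2.13e-06), and TO-p minus OT-p -0.14 (SE 0.149, adjusted p = 0.464).

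The condensin subunits did not move as 1 unit between lines. Smc2, an ATPase shared by both condensins, had 10.64, 10.09, 9.86 and 9.71 in TO-p, 11.69, 11.72, 11.15 and 11.27 in OT-p and 11.11, 11.05, 10.79 and 10.79 in WT-p, and its TO-p minus OT-p difference of -1.18 (SE 0.207, adjusted p = 4.1e-05) was the largest of the set in p medium. In d medium it was lower in TO-d than OT-d by 0.64, a call lost under 5 of 20 alternatives, among them leaving out TO-d replicate 1 or OT-d replicate 2 or 4. Its partner Smc4 (probe at chromosome 3, 69122460 to 69122519, mm8) had 11.78, 11.76, 11.72 and 11.57 in TO-d, 11.26, 11.42, 11.12 and 11.45 in OT-d and 12.29, 11.86, 12 and 11.98 in WT-d, an order in which OT-d was lowest and WT-d highest without overlap. The differences were 0.41 (SE 0.0985, adjusted p = 0.00174) for TO-d minus OT-d and -0.73 (SE 0.0926, adjusted p = 9.4e-07) for OT-d minus WT-d, opposite to most of the set. The second Smc4 probe gave 0.24 (adjusted p = 0.202) and -0.24 (adjusted p = 0.148) for the same comparisons, not called. Ncapg and Ncaph, condensin I subunits, were lower in TO-d than OT-d by 1.46 and 0.57. Ncapd2, another of them, was lower in TO-d than OT-d by 0.35 and than in WT-d by 0.43, without overlap in either case.

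Among the cytokinesis genes, Shcbp1, an Shc-binding protein found at the midbody, had 6.97, 7.56, 7.91 and 6.99 in TO-d, 8.65, 8.90, 8.94 and 8.88 in OT-d and 7.01, 7.25, 6.93 and 7.54 in WT-d, against 12.56 to 13.18 over the p samples. Its medium difference was -5.48 in TO, -4.23 in OT and -5.67 in WT, the largest of the 60 in WT cells, and OT-d lay above TO-d by 1.51 and above WT-d by 1.61. Ect2, the exchange factor that activates RhoA at the cleavage furrow, was lower in TO than in OT in both media, by 1.02 in d and 0.76 in p. Its dimmer second probe fell less, by 0.61 in TO, 1.17 in OT and 0.65 in WT, and gave 0.04 (adjusted p = 0.846) for TO-d minus OT-d, not called. Anln, anillin, was at background in TO-d and WT-d and fell at least 4.41-fold and 5.46-fold.

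Racgap1, the GTPase-activating subunit of centralspindlin (probe at chromosome 15, 99449120 to 99449179, mm8), was the 1 member that did not fall in any line. It had 11.64, 11.80, 11.75 and 11.90 in TO-d, 12.23, 11.85, 12.36 and 12.13 in OT-d and 11.93, 11.45, 11.69 and 12 in WT-d. It had 11.64, 11.67, 11.52 and 11.51 in TO-p, 11.44, 11.42, 11.77 and 11.38 in OT-p and 11.60, 11.30, 11.51 and 11.45 in WT-p. Only in OT did the d samples lie above the p samples without overlap. The difference was 0.16 (SE 0.112, adjusted p = 0.247) in TO, 0.72 (SE 0.107, adjusted p = 2.73e-06) in OT and 0.28 (SE 0.12, adjusted p = 0.0427) in WT, and the call in WT was lost under 10 of 20 alternatives. They include leaving out WT-d replicate 1, WT-d replicate 4 (0.15, adjusted p = 0.305) or WT-p replicate 2, 3 or 4. Its second probe gave -0.08, -0.04 and -0.32 in TO, OT and WT, none of them called. Neither probe showed a fall like that of its centralspindlin partner Kif23, which fell by 3.03 in TO, 2.93 in OT and 3.30 in WT.

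Cit, citron kinase of the midbody (probe at chromosome 5, 116267848 to 116267907, mm8), had 8.30, 8.35, 8.43 and 8.27 in TO-d, 7.70, 7.51, 7.32 and 7.56 in OT-d and 7.55, 8.08, 7.81 and 7.96 in WT-d. In p medium it had 9.86, 9.51, 9.68 and 9.63 in TO-p, 9.86, 9.94, 9.80 and 10.02 in OT-p and 9.71, 10.26, 10.07 and 10.32 in WT-p. TO-d lay above both other lines without overlap, 0.81 (SE 0.124, adjusted p = 1.63e-05) for TO-d minus OT-d and 0.38 (SE 0.132, adjusted p = 0.0227) for TO-d minus WT-d, and OT-d minus WT-d was -0.43 (SE 0.117, adjusted p = 0.00391). The TO-d minus WT-d call was lost without TO-d replicate 4, and the OT-d minus WT-d call without OT-d replicate 3 and without WT-d replicate 2. The other 2 Cit probes gave 0.12 (adjusted p = 0.375) and 0.02 (adjusted p = 0.887) for TO-d minus OT-d, not called, and fell in each line by 0.24 to 0.59.

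**Figure D3:**
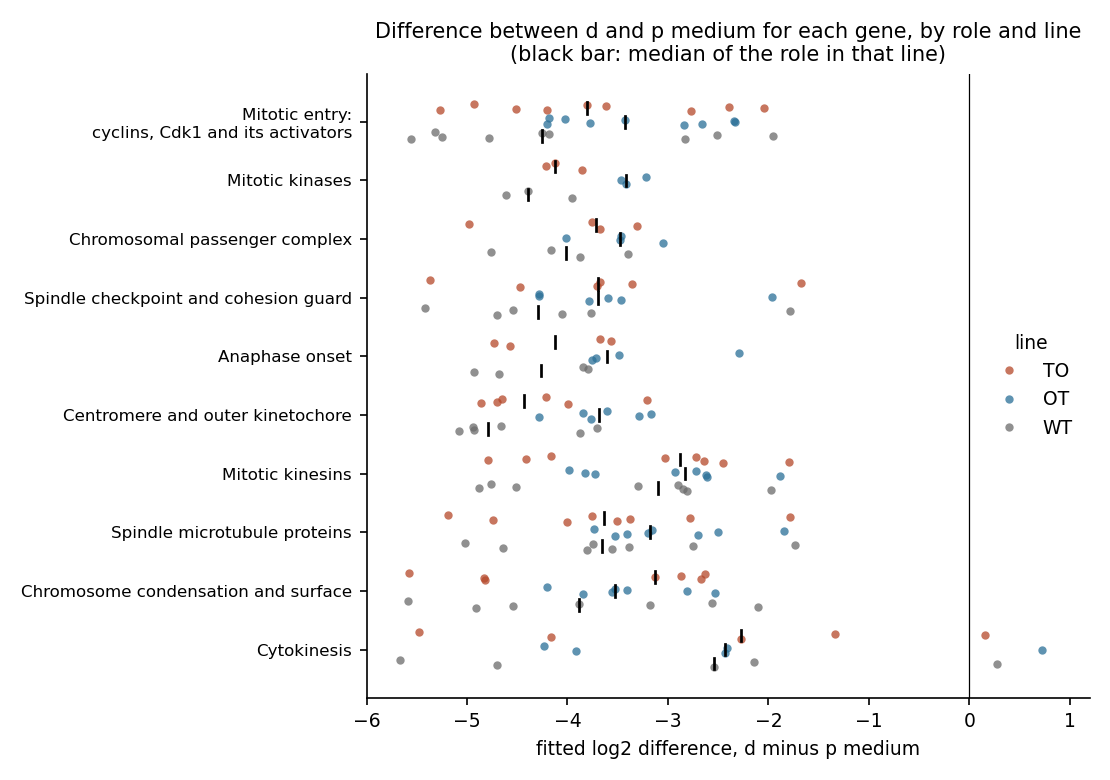
Fitted log2 difference of d minus p medium for each of the 60 genes (points), by role (rows) and line (colours, TO above OT above WT), with a black bar at the median of the role in that line. All points lie left of 0 except Racgap1, at 0.16 in TO, 0.72 in OT and 0.28 in WT, and the largest falls reach -5.58 in TO, -4.28 in OT and -5.67 in WT.

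The test of the medium response between lines bears on whether the set fell further in 1 line than in another. The fall was larger in TO than in OT for 27 genes and smaller for 3, Cit (1.07), Smc4 (0.90) and Trip13 (0.60), against 22.8% of all genes with a lower and 17.3% with a higher value, and the median was -0.37. The 27 included Ccnb2 at -1.54, Sapcd2 at -1.45, Cenpf at -1.41, Mki67 at -1.37 and Nusap1 at -1.33. Racgap1 was also among the 27, at -0.56, through its rise in OT. Ccnb1 (-1.06), Top2a (-0.98), Birc5 (-0.96), Cdc20 (-0.81), Ccna2 (-0.74) and Aurkb (-0.62) passed the test, whereas Aurka (-0.74), Plk1 (-0.42), Foxm1 (-0.19) and Cdk1 (0.07) did not. The Ccna2 call was lost under 6 of 28 alternatives, among them leaving out TO-p replicate 1 or 2, OT-p replicate 1 or TO-d replicate 4, and Aurka was called at -1.07 (adjusted p = 0.0237) without TO-d replicate 1. Without the samples marked b, Aurkb (-0.66, adjusted p = 0.0648) and Cdc20 (-0.75, 0.073) were not called. Top2a lost its call with the mean of all its probes (-0.53, adjusted p = 0.0585). Ccnb1 (-0.55), Top2a (-0.44) and Aurkb (-0.12) lost theirs with the local background as scanned. The count was 12 (2 higher, 10 lower) with the local background as scanned, a setting in which 1 array had extreme background spots, and 19 (4 higher, 15 lower) without the samples marked b.

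Between OT and WT the fall was smaller in OT for 30 genes (Racgap1 among them) and larger for 3, Smc4 (-0.97), Ncapd2 (-0.43) and Cdc25b (-0.38), against 20.4% and 14.6% of all genes, with a median of 0.64. The largest called values were Ccnb2 at 2.12, Cenpf at 1.64, Ccna2 at 1.47, Shcbp1 at 1.44 and Mki67 at 1.39. Ccnb1 (1.36), Aurka (1.14), Top2a (1.07), Cdc20 (0.92), Aurkb (0.82) and Birc5 (0.74) passed the test, and Foxm1 (0.75), Plk1 (0.53) and Cdk1 (-0.01) did not. Without WT-d replicate 4 Foxm1 was called at 1.10 (adjusted p = 0.00373) and Plk1 at 0.86 (adjusted p = 0.0292). Foxm1 was also called at 1.06 (adjusted p = 0.027) without OT-d replicate 3 and at 1.71 (adjusted p = 0.03) with processed signals, and Aurka lost its call without WT-d replicate 2 (1.05, adjusted p = 0.0566). The Aurka call was also lost without the samples marked b (1.05, adjusted p = 0.19). Ccnb1 (1.32, adjusted p = 0.0515), Top2a (1.06, 0.136) and Aurkb (0.81, 0.271) lost theirs with the local background as scanned. For Ect2 the probes disagreed, 0.80 for the brighter and -0.52 for the dimmer one, both called. The count was 44 (41 higher, 3 lower) without WT-d replicate 4 and 19 (17 higher, 2 lower) with the local background as scanned. Between TO and WT, 7 genes fell less in TO (Smc2, Trip13, Cit, Ccna2, Kif4, Ect2 and Mad2l1, at 0.41 to 1.00) and Ncapd2 fell more (-0.57), against 17.6% and 19% of all genes. The Ccna2 call (0.73, adjusted p = 0.0279) was lost under 8 of 28 alternatives, among them leaving out WT-p replicate 1 or 3, TO-d replicate 1 or WT-d replicate 2, and was 1.16 (adjusted p = 1.32e-05) without WT-d replicate 4. The count of members was 25 (24 higher, 1 lower) without WT-d replicate 4 and 4 with the local background as scanned.

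Across the 60 genes, the difference between TO and OT in d medium ran with the size of the medium response, while the difference in p medium did not. Pearson's r between TO-d minus OT-d and WT-d minus WT-p was 0.75 (Spearman's rho 0.83) over the 60 genes and 0.01 over all 16241 genes. Between TO-p minus OT-p and WT-d minus WT-p it was 0.06 over the 60 genes and 0.40 over all genes, and between TO-p minus OT-p and TO-d minus OT-d it was 0.03 and 0.46. These pairs share no samples, but they share arrays and slides, and genes are not independent replicates. Over the 50 members with at least 1 sample well above background in every group, the first of these was 0.71 (rho 0.81). Genes near background remain among them, such as Bub1 and Nusap1, each well above it in 1 of 4 WT-d samples. Ckap2, with a line difference of -0.14 in d medium, had a small fall, although Kif18a (-0.03) and Trip13 (0.05) fell further, and Mki67, Shcbp1, Sgo1 and Kif20a were at the other end. Racgap1 did not fall, yet its line difference lay below that of Ckap2, with means of 11.77 in TO-d and 12.14 in OT-d. Background limits how far a fall can be measured, and also how large a line difference in d medium can be. Its part in the correlation was not tested. Not well above background were 5 genes in any TO-d sample, 1 in any OT-d sample and 10 in any WT-d sample.

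**Figure D4:**
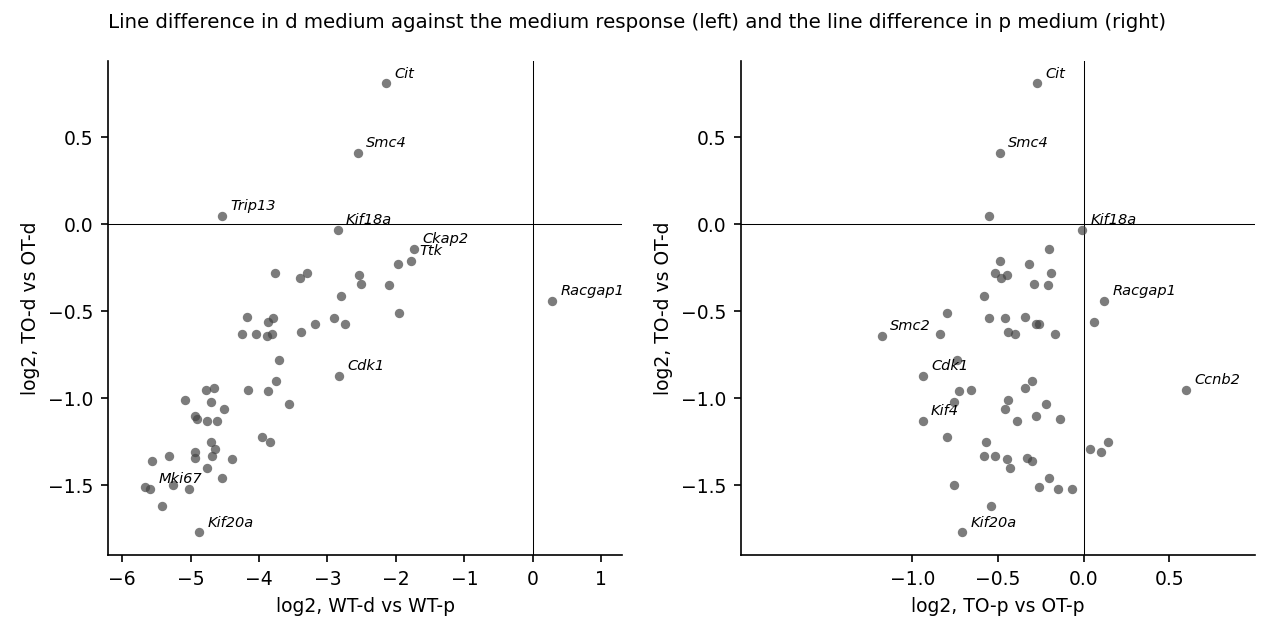
Fitted log2 difference of TO-d minus OT-d for each of the 60 genes (points, y axis in both panels) against WT-d minus WT-p (left) and against TO-p minus OT-p (right). On the left most points run from Ckap2 (-0.14) down to Kif20a (-1.77) as the fall in WT grows, with Cit (0.81), Smc4 (0.41), Trip13 (0.05) and Kif18a (-0.03) above Ckap2. Racgap1, at 0.28 in WT, lies below Ckap2 and off this run. On the right no such slope is seen.

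Genes of related lists, chosen with earlier results known, show how far the pattern reached. Of 70 other mitotic genes, 36 were lower in TO-d than OT-d and 3 higher (median -0.28), against 20.9% and 19% of all genes. In p medium 45 were lower in TO-p than OT-p and 3 higher (median -0.46), against 26.2% and 29.9%. Their medium falls were 68 of 70 in TO and 69 of 70 in OT and in WT, where 25.9%, 31.1% and 30.8% of all genes fell. Spag5, a spindle-associated protein, was lower in TO-d than OT-d by 1.24 and Cdca3 by 1.1, whereas Cenpq, a subunit of the inner kinetochore, was higher by 1.2. Genes of DNA replication and G1/S, 46 in number, all fell in d medium in each line. In p medium 36 of them were lower in TO than in OT and 1 higher, against 26.2% and 29.9% of all genes, with a median of -0.70. The largest values were in Rpa2 (-1.59), a subunit of the single-strand binding protein, Ung (-1.56), which removes uracil from DNA, and Cdc6 (-1.50), which loads the replicative helicase. In d medium only 14 were lower and 10 higher, against 20.9% and 19% of all genes, with a median of -0.13.

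The medium response of the replication list was smaller in TO than in OT for 27 of 46 genes and larger for 2 (median 0.62). This was the opposite split to the 3 and 27 of the mitotic members, where 17.3% of all genes had a higher and 22.8% a lower value. Among 22 genes of MuvB, B-Myb, E2F and the pocket proteins, 11 were lower and 2 higher in TO-p than OT-p, against 26.2% and 29.9% of all genes, led by Mybl2 (-1.37), B-Myb, Lin54 (-1.25), the DNA-binding subunit of MuvB, and E2f7 (-1.2), a repressor of the E2F family. In d medium 4 of these were lower and 4 higher, shares near the 20.9% and 19% of all genes, among them E2f3 (0.76) and E2f1 (-0.73). Cohesin and its regulators fell less than the members with the medium, with medians of -0.35 in TO, -0.71 in OT and -0.60 in WT over 11 genes. Centrosome duplication, gamma-tubulin and augmin genes fell in 19 of 20 cases in each line, against 25.9%, 31.1% and 30.8% of all genes in TO, OT and WT. Their medians were -0.95 in TO, -1.09 in OT and -1.17 in WT.

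**Figure D5:**
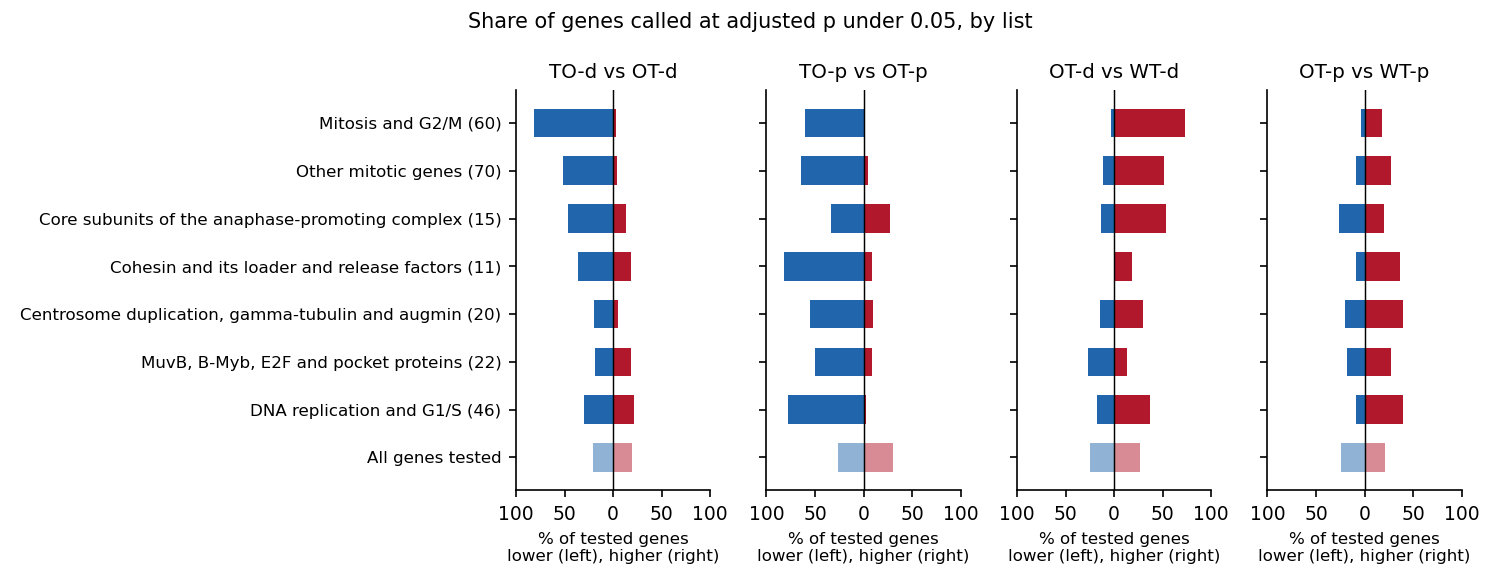
Share of tested genes called lower (blue, left of 0) and higher (red, right of 0) at an adjusted p under 0.05, for the 60 members, 6 related lists and all genes tested (pale), in 4 comparisons between lines. In TO-d minus OT-d the members have 49 of 60 lower and the replication list 14 of 46, while in TO-p minus OT-p they have 36 of 60 and 36 of 46.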

How the data were processed

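RNA from 24 samples was hybridised on 12 2-colour Agilent arrays, and the deposited spot intensity values were made by the authors with Feature Extraction (version 10.5.1.1, per the file headers); probe positions are on mm8. The authors' deposited series table of log2 values served as an alternative. Background was corrected with normexp (offset 50), and 1639 control spots were removed. Each array was normalized by loess and arrays by Aquantile (limma 3.58.1, R 4.3.3). For 372 spots marked as having uneven local background, the median background of that dye and array was used instead, a choice made after seeing the data. Spots marked as outliers (0.294% of values) were left out. A gene was tested if well above background in all 4 samples of a group. Each channel was 1 sample in a limma fit of 6 group means and dye with the array as a block (correlation 0.453, 17 residual degrees of freedom); limma's lmFit replaced its lmscFit, which takes no missing values. P-values were adjusted over 16241 genes by Benjamini-Hochberg and called at 0.05; SE is the standard error of the fitted log2 difference, which can differ from that of the printed levels because of the dye and array terms. Members and lists were chosen with earlier results of these data known. The text names 11 anchors (Cdk1, Ccnb1, Ccna2, Plk1, Aurka, Aurkb, Cdc20, Birc5, Top2a, Mki67 and Foxm1), the 5 members with the largest called change per comparison and direction, the extremes of each role, exceptions, and at most 3 genes of each other list; other members were added after their values were seen. The fit was tested on simulated data. The number of arrays limits the precision.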

Additional observations from a re-analysis of the deposited data

Results flagged for a closer look

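In groups of 4 samples, 1 sample lay far from the other 3 (by Dixon's ratio of gap to range) in 10 of 90 groups tested, where chance gives about 1 in 20. WT-d replicate 4 was the high sample for Cdk1 (11.20), Aurka (10.68), Top2a (8.06), Foxm1 (8.27) and the mean over the 60 genes (8.49). In OT-p, replicate 2 stood apart for Aurka (14.39) and Top2a (12.52), and replicate 3 for Mki67 (13.48) and Racgap1 (11.77). In TO-d, replicate 1 stood apart for Aurkb (5.97).

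The medium response of some members differed between lines by the test of the difference itself. Between TO and OT, 3 genes had a higher and 27 a lower value, against 17.3% and 22.8% of all genes. Among them were Ccnb1 (-1.06), Ccna2 (-0.74), Aurkb (-0.62), Cdc20 (-0.81), Birc5 (-0.96), Top2a (-0.98), Mki67 (-1.37), Racgap1 (-0.56), Cit (1.07) and Smc4 (0.90). Between TO and WT, 7 were higher and 1 lower, shares below the 17.6% and 19% of all genes. Ccna2 was at 0.73 (lost under 8 of 28 alternatives) and Cit at 0.80. Between OT and WT, 30 were higher and 3 lower, against 20.4% and 14.6% of all genes. Among them were Ccnb1 (1.36), Ccna2 (1.47), Aurka (1.14), Aurkb (0.82), Cdc20 (0.92), Birc5 (0.74), Top2a (1.07), Mki67 (1.39), Racgap1 (0.44) and Smc4 (-0.97). Some of the calls in these 3 comparisons were lost under alternatives, as given above.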

How the results depend on the processing

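Of the counts of members called under the alternatives, 253 stayed within 1.5 times, 22 moved further and 1 reversed. Among single genes only the anchors were sorted in a like way (same, weaker, stronger or reversed), and none of their called differences reversed. For the other members the calls kept or lost under the alternatives were followed, and some are given above. Some differences that were not called did change sign. Without WT-d replicate 4, TO-d minus WT-d went from -0.34 to 0.12 in Plk1 and from -0.14 to 0.07 in Ccnb1. The count for TO-d against WT-d reversed without WT-d replicate 4 (18 called, 12 higher and 6 lower). It gave 3 with loess alone, 4 with the local background as scanned and 7 with the mean of all probes. TO-p against WT-p gave 14 with Feature Extraction's processed signals and 10 without the samples marked b. OT-p against WT-p gave 20 (18 higher, 2 lower) with the series table and 4 with the background as scanned. The TO and OT responses differed in 12 genes with the background as scanned and in 19 without the b samples. The TO and WT responses differed in 14 with processed signals, in 4 with the background as scanned and in 4 without the b samples, and the OT and WT responses in 19 with the background as scanned. Of the 105 probes, only those well above background in all 4 samples of a group were tested singly. Called among these were 59 probes for TO-p against OT-p, 25 for OT-p against WT-p, 89 for the TO and 91 for the OT medium response. Of all genes, 29.9% were called higher and 26.2% lower for the first of these, and 20.7% and 24% for the second. For the TO response they were 26.5% and 25.9%, and for the OT response 36.5% and 31.1%. The share over all probes was not computed, so the probe counts are not read as a result. The background as scanned and the array partner were added after seeing the data.

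Leaving out 1 sample at a time gave 27 to 35 calls for TO-p against OT-p, 46 to 51 for TO-d against OT-d, 15 to 25 for TO-p against WT-p, 7 to 18 for TO-d against WT-d, 7 to 13 for OT-p against WT-p and 38 to 53 for OT-d against WT-d. It gave 59 for the TO, 60 for the OT and 59 to 60 for the WT medium response, and 26 to 32 (TO and OT), 7 to 25 (TO and WT) and 30 to 44 (OT and WT) for the differences of responses. The causes were not tested. With the replicate number as a block (replicate block) the counts were 40, 51, 26, 10, 14, 49, 59, 60, 60, 30, 9 and 35 in the same order. Samples of different groups with the same replicate number did not deviate together (r of -0.30 to 0.30), so replicate numbers were not taken as a pairing. That check does not cover the pairs within a group that share a label number. The SD of their difference over genes was 0.24 in TO-p, 0.149 in OT-p, 0.269 in WT-p, 0.203 in TO-d, 0.18 in OT-d and 0.405 in WT-d. It was the smallest of its group in OT-p and OT-d and the largest in WT-d, where the pair was replicates 2 and 4. Whether such a pair came from 1 culture was not tested.

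Loess alone changed the share of higher among all genes called to 74.7% against 49.3% for TO-d and WT-d, 66.7% against 47.6% for TO-d and OT-d, 31.4% against 46.3% for OT-p and WT-p, 40.3% against 54.6% for TO-p and WT-p, 38.5% against 53.8% for the WT medium response, 80.4% against 48.1% for TO and WT responses, 80% against 58.3% for OT and WT responses, and 54.5% against 43.2% for TO and OT responses. It moved the median of all genes to 0.11 for TO-d and WT-d and 0.13 for the TO and WT responses, and processed signals moved it to 0.19 for the WT medium response and -0.13 for the TO and WT responses. Several d samples lay at background, which limits the size of falls.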
